A study of Araneus ventricosus with 24 samples.

Results

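Metallothioneins and ferritins are the proteins that cells use to bind free metal ions, and their transcripts were examined in the orb-weaving spider Araneus ventricosus after a 30 day exposure to cadmium, lead or both. The set holds every assembled gene cluster with the word metallothionein or ferritin in the description of its NR, Swissprot or NT (nucleotide) hit. It came to 18 of 142219 clusters, of which 2 were named for metallothionein and 16 for ferritin. A further 116 clusters carry one of the words only in a domain, orthology or ontology field, and these were not counted as members.

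The ampullate gland makes the major silks, and the cerebral ganglia are the spider's central nervous tissue. Each tissue was sampled from spiders that were untreated, exposed to cadmium, exposed to lead, or exposed to cadmium plus lead (the combined group). The labels give no dose, route, sex or age. Of 24 deposited columns 4 repeat another column of their group in every cluster, which leaves 20 libraries: 3 untreated, 3 cadmium, 2 lead and 2 combined in each tissue.

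Metallothioneins are small, cysteine-rich proteins that bind zinc, copper and cadmium, and in many animals their transcription rises with metal through the metal regulatory transcription factor. Ferritins assemble into hollow shells that store iron. In vertebrates the heavy chain oxidises iron and the light chain helps to form its mineral core, while invertebrates carry soma ferritins, named from a pond snail, and secreted forms. In animals, ferritin messages with an iron-responsive element are held back from translation by iron regulatory protein 1, which is cytoplasmic aconitase without its iron-sulphur cluster, so that a transcript level alone does not give the amount of ferritin protein.

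Library totals ran from 14834065 to 20954478 estimated counts. Levels are in CPM (counts relative to the library total) scaled by TMM, which adjusts for composition, unless another scale is named. TMM was fitted within each tissue for these levels, so gland and ganglia CPM are not on one common scale. The log2 differences between tissues come from a fit of both tissues together. Of the marker lists, the 750 silk clusters summed to 62712 to 237334 unscaled CPM in the gland against 2868 to 19194 in the ganglia. The 91 clusters named for nerve proteins overlapped between the tissues, with sums of 1042 to 1745 CPM for gland and 717 to 2563 for ganglia libraries, although 20 of the 74 tested were lower in the untreated gland and 6 were higher. The 76 muscle clusters summed to 38884 to 73089 CPM in the ganglia against 1202 to 7994 in the gland, so the tissue labelled cerebral ganglia held much muscle RNA.

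The metallothionein set rested on similarity alone. Both clusters, Cluster-16698.33334 (568 bases) and Cluster-27632.0 (1288 bases), had as their Swissprot hit a metallothionein of the zebra mussel, with scores of 160 and 139. Their better hit in the NR protein collection was one and the same hypothetical protein of the velvet spider Stegodyphus mimosarum, with scores of 442 and 447. Neither hit a spider protein that is itself named metallothionein. The first of these clusters had reads in all 20 libraries and is called the metallothionein-like cluster here, while the second averaged 0.604 CPM and had reads in 16.

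Ferritin transcripts were abundant. Per length, 4 ferritin clusters lay above every other member, with mean FPKM (fragments per kilobase, scaled to depth) over the 20 libraries of 1070 for the heavy-chain-like ferritin, 845 for the A. ventricosus ferritin, 645 for the long soma ferritin and 513 for a short soma ferritin. The heavy-chain-like ferritin (Cluster-16698.47525, 1117 bases) has as its best hits a "spleen middle subunit" ferritin of S. mimosarum and a frog heavy chain. The A. ventricosus ferritin (Cluster-16698.47597, 837 bases) matches the ferritin already described from this species. The long soma ferritin (Cluster-16698.46979, 3041 bases) had the highest mean count of all members, at 1849 CPM. The short soma ferritin (Cluster-16698.47615) is only 312 bases long, near the fragment length, which makes its FPKM unreliable. Estimated counts are fractional where reads were divided among clusters, and both soma ferritins had fractional counts in all 20 libraries, the heavy-chain-like ferritin in 12 and the A. ventricosus ferritin in 14. The division of reads among these clusters is therefore uncertain, in the ratios and shares built on them too.

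Below these stood a cluster like ferritin heavy chain A (Cluster-16698.29077, 1730 bases), at a mean of 11.1 CPM. A second cluster matching A. ventricosus ferritin (Cluster-16698.42639, 1098 bases, score 236) followed at 3.12 CPM. The other 10 ferritin-named clusters averaged under 2 CPM. In all, 9 members averaged at least 1 CPM and 6 at least 10 CPM. The filter on low counts passed 13 members in the gland, 13 in the ganglia and 16 when both tissues were fitted together. Of the 2 never tested, one ferritin-named cluster had 35 counts in all, and one with a bacterioferritin name and a Ralstonia nucleotide hit had 3 counts in a single gland library.

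In the gland, the metallothionein-like cluster was higher in every exposed library than in every untreated one. Its level was 1.58, 4.03 and 1.33 CPM in the untreated gland libraries, 4.88, 8.47 and 6.32 with cadmium, 10.6 and 5.10 with lead, and 10.2 and 5.67 with both metals. The 7 exposed libraries thus lay at 4.88 to 10.6 CPM, without overlap with the untreated ones. Among all 44505 clusters tested in the gland, 1.67% were higher in this way, a grouping added after the data were seen. The 76 muscle clusters separated the same libraries in the opposite direction, with sums of 7994, 3272 and 2714 unscaled CPM in the untreated gland and 1202 to 2001 in the 7 exposed libraries. Of these clusters 7 were at 0 in all gland libraries, and their part in the metallothionein values was not tested. The log2 change was 1.50 ± 0.62 (SE) for cadmium, 1.76 ± 0.67 for lead and 1.78 ± 0.67 for both metals. It was 1.68 ± 0.56 for the 3 exposures averaged, a contrast added after the data were seen. None passed the test: the adjusted p of edgeR's quasi-likelihood test with Benjamini-Hochberg adjustment was 1.0, 0.382, 0.288 and 0.277.

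No other member moved past the threshold in the gland either. With edgeR 0 of 13 members were called for cadmium, lead or combined exposure against untreated, where 0%, 0% and 0.225% of all tested clusters were called, and DESeq2 also called 0 in each, where it called 0.218%, 4.04% and 7.22% of all clusters. At an unadjusted p under 0.05 each of these comparisons held 1 member, the metallothionein-like cluster, against 2.86%, 11.9% and 14.9% of all clusters. Combined against lead, combined against cadmium, and the test of whether both metals differed from the added single-metal changes also gave 0 members by both tools, where edgeR called 0% of all clusters in each and DESeq2 0.351%, 4.17% and 0.146%. At an unadjusted p under 0.05 they held 0 members, against 2.03%, 11.3% and 1.79% of all clusters. Of the contrasts added after the data were seen, pooling the gland libraries with lead gave 0 members, where 1.68% of all clusters were called. The 3 exposures averaged gave 0, where 0.0764% were. The median log2 change over the members was 0.10 for cadmium, -0.18 for lead and 0.27 for both, beside 0.07, -0.15 and -0.04 over all clusters.

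In the ganglia, the metallothionein-like cluster stood high in 2 of the 4 libraries exposed to lead. Untreated ganglia held 18.4, 12.3 and 17.2 CPM and cadmium ganglia 12.1, 15.3 and 13.2. Lead ganglia held 17.5 and 32.8 CPM, and combined ganglia 41.4 and 16.6. One lead library and one combined library were therefore inside the untreated range and the others were well above it. The log2 change was -0.24 ± 0.36 for cadmium, 0.65 ± 0.40 for lead and 0.86 ± 0.40 for both, with edgeR adjusted p of 0.908, 0.338 and 0.236.

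Pooling all ganglia libraries with lead against all without, a contrast added after the data were seen, gave a log2 difference of 0.87 ± 0.28 with an edgeR adjusted p of 0.067. It passed the threshold with DESeq2 (0.90, adjusted p 0.0327), without the filter on low counts (0.96, 0.0037), after a trend with cluster length was removed (1.02, 0.043), and without combined library 2 (1.15, 0.037). It missed the threshold under the other alternatives, and over all of them, each left-out library included, the adjusted p ran from 0.0037 to 0.276. The scale mattered. In FPKM summed over both metallothionein-named clusters, the ganglia libraries with lead lay at 66.3 to 142 and those without at 27.5 to 55.1. In unscaled CPM they lay at 20.4 to 41.9 and 9.11 to 17.9. Both were without overlap, whereas the TMM-scaled values overlapped. The share of all clusters apart in this way in FPKM or unscaled CPM was not counted.

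Other properties of the libraries moved with lead. In the ganglia the fragment length implied by the FPKM values was 271 to 281 bases with lead and 248 to 262 without, and the most abundant mitochondrial cluster took 11.8 to 13.6% of counts with lead and 18.2 to 35.4% without. In the gland the implied fragment length was 277 to 278 bases with lead and 247 to 273 without. Of the 36 clusters named for hemolymph and hemocyte proteins, none was at 0 in all ganglia libraries. Their sum was 27382 CPM in combined library 1, where the metallothionein-like cluster peaked, and 3786 in combined library 2. It was 6040 in lead library 2 and 3866 in lead library 1, and 0 of the 28 tested were called for lead. In the ganglia without lead the sum ran from 2179 to 16142 CPM. At its highest there, in untreated library 2, the metallothionein-like cluster was at 12.3 CPM. The part of these properties in the metallothionein values was not tested.

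**Figure D1:**
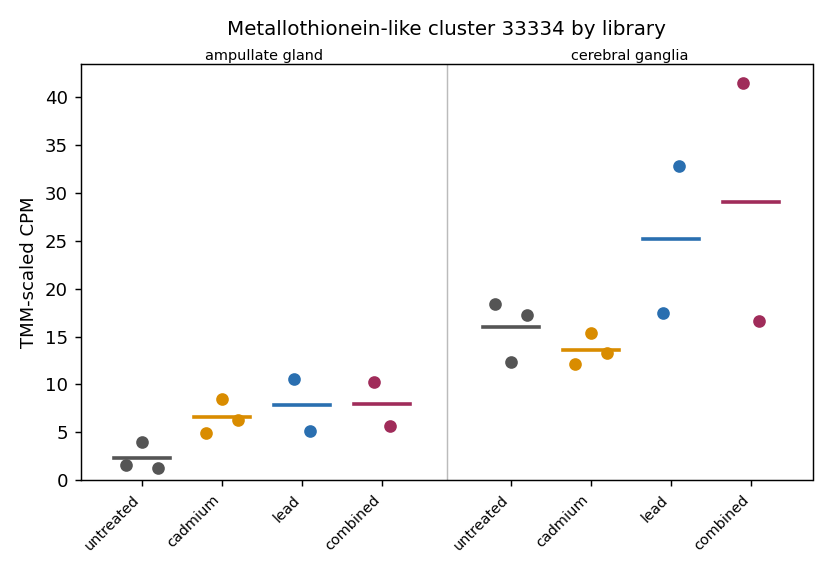
Level of the metallothionein-like cluster (TMM-scaled CPM, linear axis from 0) in each of the 20 libraries by tissue and exposure. Points are libraries and bars are group means; the 7 exposed gland libraries lie at 4.88 to 10.6 CPM, above the 3 untreated ones, and 1 lead and 1 combined ganglia library stand apart at 32.8 and 41.4.

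The same cluster differed between the tissues. In untreated animals its mean was 2.31 ± 1.50 CPM (SD, n = 3) in the gland and 15.98 ± 3.20 in the ganglia, a log2 difference of -2.70 ± 0.53 with an edgeR adjusted p of 0.0039. With cadmium the difference was -1.08 ± 0.50 (adjusted p 0.164), with lead -1.78 ± 0.62 (0.105) and with both metals -1.99 ± 0.63 (0.0689). The last passed the threshold with DESeq2 (0.0173), with a filter of 1 CPM (0.0406), and without gland untreated library 1 (0.0489), 2 (0.022) or 3 (0.0493), and that for lead passed without gland untreated library 2 (0.0446). Whether the change on exposure differed between the tissues was tested directly, and the edgeR adjusted p was 0.889. The second metallothionein-named cluster stood at 0.00, 0.292 and 0.00 CPM in the untreated gland and 0.978, 1.74 and 0.389 in the untreated ganglia, a log2 difference of -3.23 ± 1.50 (adjusted p 0.171). With cadmium it was at 0.197, 1.43 and 0 CPM in the gland and 0.613, 1.21 and 0.68 in the ganglia. With lead it was at 0.255 and 0.364 CPM in the gland and 0.889 and 0.82 in the ganglia, and with both metals at 0.764 and 0 in the gland and 0.679 and 0.794 in the ganglia.

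The ferritins were also higher in the ganglia. Summed over the 16 ferritin-named clusters, unscaled CPM was 1087 to 2563 in the 10 gland libraries and 2942 to 5546 in the 10 ganglia libraries, without overlap. How many of all clusters are apart on this scale was not counted. Of 16 members tested, 3 were lower in the untreated gland than in the untreated ganglia and 0 were higher by edgeR, where 10.3% of all clusters were called, 6.35% lower and 3.91% higher. These were the metallothionein-like cluster, the heavy-chain-like ferritin and the A. ventricosus ferritin. The median log2 difference over the 16 was -0.96, beside 0.10 over all clusters. DESeq2 called 5, where it called 18.2% of all clusters. In bulk tissue, more cells of a type that holds these transcripts and more RNA per cell cannot be told apart, and the muscle sums given above moved with tissue in the same way, with 32 of 66 tested muscle clusters lower in the untreated gland; their part in the ferritin difference was not tested.

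Of the 3 most abundant ferritins, the heavy-chain-like ferritin was called between the tissues in every exposure. Its level in the gland was 272, 499 and 192 CPM untreated, 200, 337 and 303 with cadmium, 241 and 286 with lead, and 259 and 130 with both metals. In the ganglia it was 1552, 917 and 1161 CPM untreated, 1913, 1622 and 1359 with cadmium, 2033 and 1547 with lead, and 2080 and 1249 with both. Every gland library lay below every ganglia library, as did 4.9% of all clusters and 2 of the 16 members. The log2 difference was -1.84 ± 0.42 untreated (edgeR adjusted p 0.0103), -2.57 ± 0.43 with cadmium (0.0012), -2.86 ± 0.54 with lead (0.0044) and -3.22 ± 0.54 with both (0.0025). The 3 comparisons within an exposure were added after the data were seen, and in them 1, 1 and 2 of the 16 members were called, all lower in the gland, against 11.5%, 6.27% and 6.27% of all clusters. Without gland lead library 1 the difference in lead was -2.75 with an adjusted p of 0.0689.

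Within a tissue, the heavy-chain-like ferritin was not called in any exposure comparison. Its log2 change in the ganglia was 0.43 ± 0.31 for cadmium, 0.56 ± 0.35 for lead and 0.46 ± 0.35 for both metals, with adjusted p of 0.76, 0.342 and 0.463. In the gland it was -0.72 ± 0.53 for both metals, with an adjusted p of 0.515. The exposure by tissue test gave an adjusted p of 0.892.

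The A. ventricosus ferritin was also higher in the ganglia. Its gland levels were 175, 212 and 232 CPM untreated, 193, 346 and 470 with cadmium, 270 and 138 with lead, and 247 and 26.3 with both metals. Its ganglia levels were 647, 1686 and 670 CPM untreated, 768, 488 and 484 with cadmium, 653 and 460 with lead, and 1165 and 606 with both. On this scale only cadmium gland library 3, at 470 CPM, reached into the range of the ganglia. In FPKM the gland lay at 58.6 to 674 and the ganglia at 871 to 2741, without overlap, but how many of all clusters do so in FPKM was not counted. Combined gland library 2, at 26.3 CPM, stood below all other libraries.

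The untreated difference of the A. ventricosus ferritin was -2.23 ± 0.64 with an edgeR adjusted p of 0.0342, and 1 library could decide that call. Without gland untreated library 1, 2 or 3 the adjusted p was 0.0855, 0.0562 and 0.0653, without ganglia untreated library 2 the difference was -1.61 with 0.151, and without ganglia lead library 1 or 2 the adjusted p was 0.0534 and 0.0529. It also missed the threshold, at 0.0567, once the trend with length was removed. The difference was -0.82 ± 0.61 with cadmium (0.43), -1.55 ± 0.76 with lead (0.282) and -2.79 ± 0.80 with both metals (0.0467). That last call was lost without combined gland library 2 (-1.92, adjusted p 0.246), combined ganglia library 1 (-2.28, 0.293) or 2 (0.1), gland cadmium library 1 (0.0522) or 2 (0.0606), ganglia cadmium library 1 (0.0505), 2 (0.0539) or 3 (0.0601), gland lead library 1 (0.0613) or 2 (0.0625), and ganglia lead library 1 (0.0755) or 2 (0.0748). In the ganglia its log2 change with lead was -0.85 ± 0.49 (adjusted p 0.315).

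The long soma ferritin was called in no comparison, between tissues or within one. Its gland levels were 705, 1555 and 1085 CPM untreated, 970, 1259 and 1358 with cadmium, 1703 and 1730 with lead, and 2579 and 705 with both metals. Its ganglia levels were 2750, 3194 and 2030 CPM untreated, 3530, 2106 and 2103 with cadmium, 1975 and 1812 with lead, and 2223 and 1600 with both. In the gland both lead libraries were above all untreated ones, as in 19% of all clusters, and in the ganglia both were below all untreated ones, as in 21.3%. The log2 change with lead was 0.62 ± 0.57 in the gland (adjusted p 0.633) and -0.49 ± 0.36 in the ganglia (0.426), and neither passed the test. For both metals in the ganglia it was -0.48 ± 0.36 (0.459).

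Between the tissues the long soma ferritin differed by -1.18 ± 0.44 untreated (edgeR adjusted p 0.0989) and -1.14 ± 0.44 with cadmium (0.101). Both passed the threshold with DESeq2, at 0.0401 and 0.0463, with no filter, and without combined gland library 1 (0.0207 and 0.0297) or 2 (0.0262 and 0.0329). The untreated difference also passed without gland untreated library 2 (-1.58, 0.0438). With lead the mean was 1717 ± 19.4 CPM in the gland against 1894 ± 116 in the ganglia (-0.24 ± 0.54, adjusted p 0.889), and with both metals 1642 ± 1325 and 1912 ± 441 (-0.32 ± 0.54, 0.802; SD, n = 2 in each group). The direction of these last differences was not settled: that for lead was 0.06 once the length trend was removed, and that for both metals was -1.84 (adjusted p 0.0449) without combined gland library 1 and 0.35 without combined gland library 2.

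**Figure D2:**
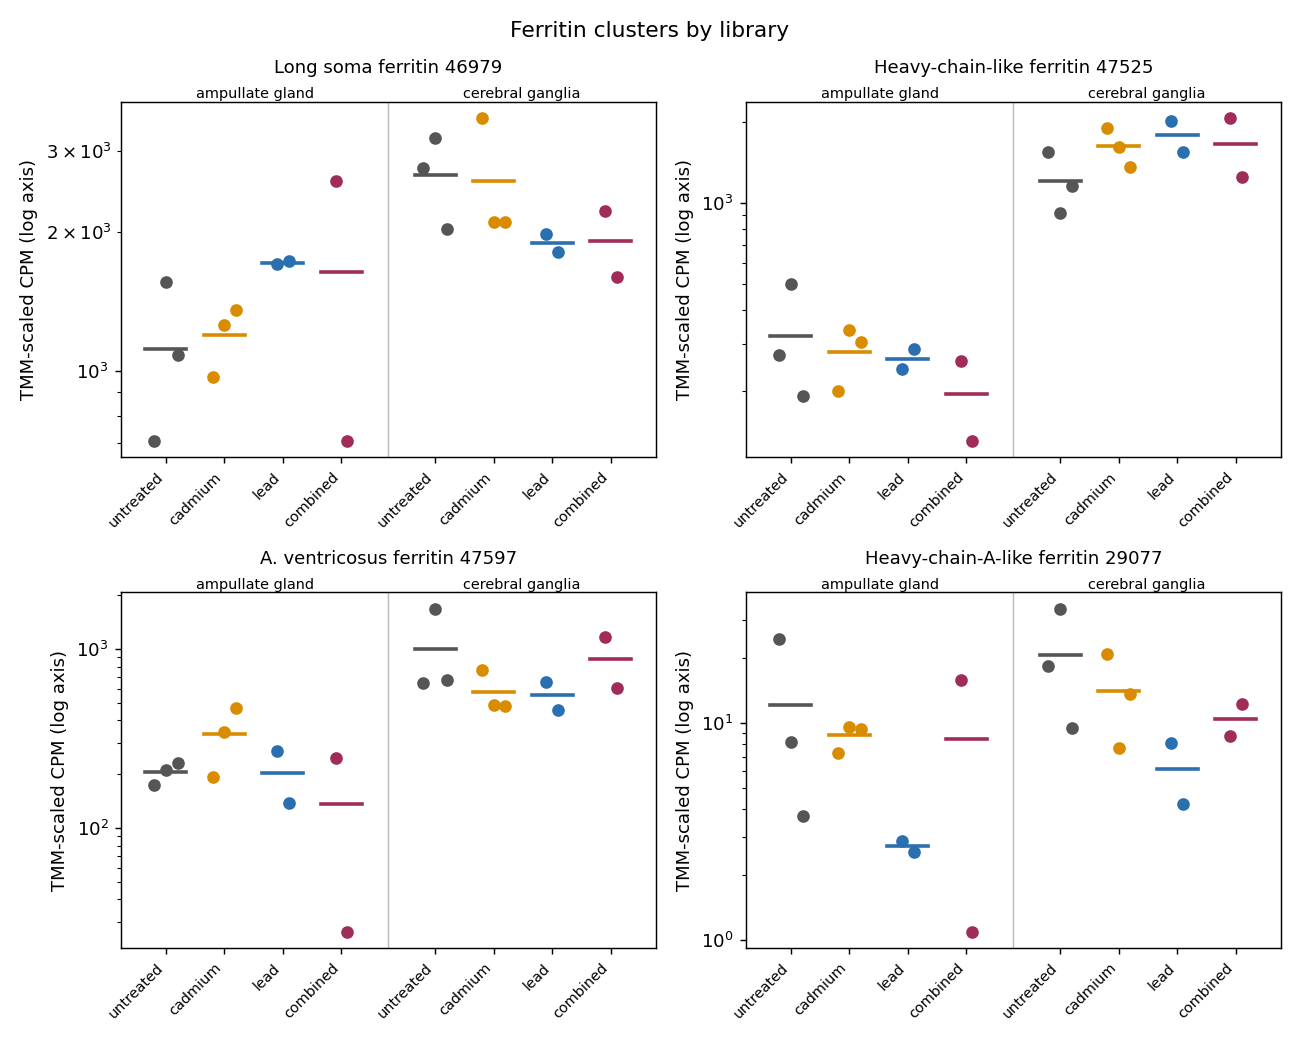
Levels of 4 ferritin clusters (TMM-scaled CPM, log axes) in each library by tissue and exposure; points are libraries and bars are group means. The heavy-chain-like ferritin lies at 130 to 499 CPM in the gland against 917 to 2080 in the ganglia, while the long soma ferritin overlaps between tissues and combined gland library 2 is the lowest library for the other 3 clusters.

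**Figure D3:**
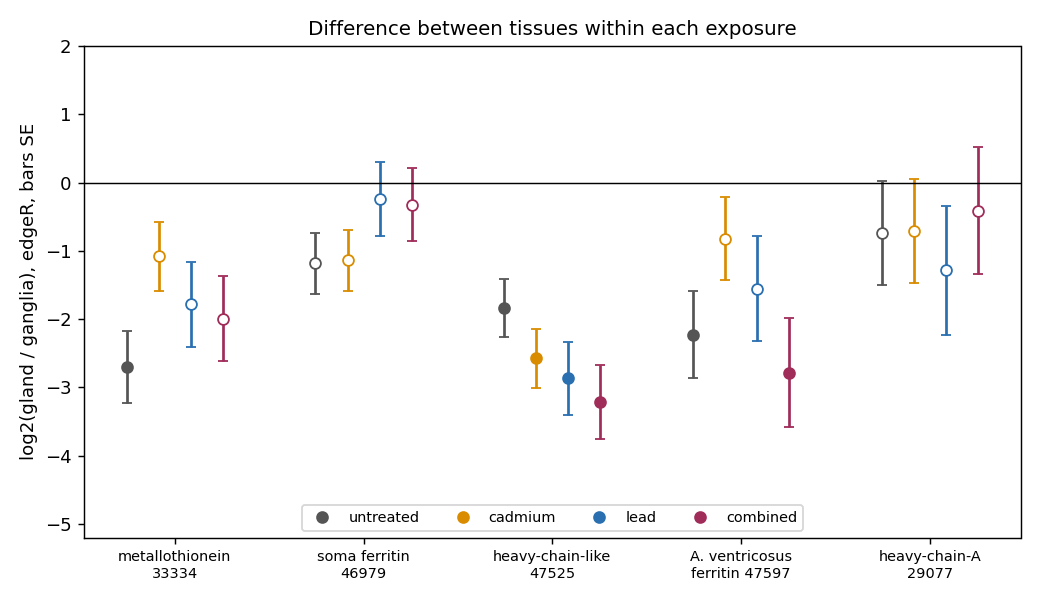
Log2 difference between gland and ganglia within each exposure for 5 members, from the edgeR fit of 20 libraries, with bars of 1 SE; filled points have an adjusted p under 0.05 and open points do not. The heavy-chain-like ferritin is filled in all 4 exposures, from -1.84 to -3.22, and the long soma ferritin in none.

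The balance between ferritin kinds was read within each library, which cancels the library's depth and scaling. Per length, the ratio of the heavy-chain-like to the long soma ferritin was 1.83, 0.928 and 1.85 in the untreated ganglia and 1.74, 2.50 and 2.10 in the cadmium ganglia. It was 3.37 and 2.81 in the lead ganglia and 3.09 and 2.56 in the combined ganglia. All 4 ganglia libraries with lead thus stood above all 6 without. The same held for the ratio of counts, at 0.781 to 1.03 with lead and 0.287 to 0.77 without, although the gap was narrow. This pair was chosen after its values were seen, so no test is given, and the fragment length above moved with lead in the same libraries.

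In the gland the ratio was lower than in most ganglia libraries. It was 1.24, 1.03 and 0.568 per length in the untreated gland, 0.669, 0.88 and 0.718 with cadmium, 0.467 and 0.544 with lead, and 0.331 and 0.606 with both metals. Both lead libraries lay below all untreated and all cadmium ones, and both combined libraries lay below all cadmium ones. Pooled, the 4 gland libraries with lead, at 0.331 to 0.606, overlapped the 6 without, at 0.568 to 1.24, since combined library 2 was above untreated library 3. The long soma ferritin made up 25.7 to 40.1% of all ferritin FPKM in the gland with lead and 24.9 to 35.9% without, with an overlap. In the ganglia it made up 14.0 to 14.8% with lead and 19.1 to 22.2% without. These sums hold the short soma ferritin, whose FPKM is unreliable. Without it the share of the long soma ferritin in the ganglia was 14.9 to 19.6% with lead and 21.6 to 26.3% without, and in the gland 44.2 to 55.3% with lead and 27.5 to 38.4% without. With the short soma ferritin left out, the libraries with lead were thus apart from those without, below them in the ganglia and above them in the gland. With it kept in, they were apart in the ganglia only. This description was chosen after the values were seen.

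**Figure D4:**
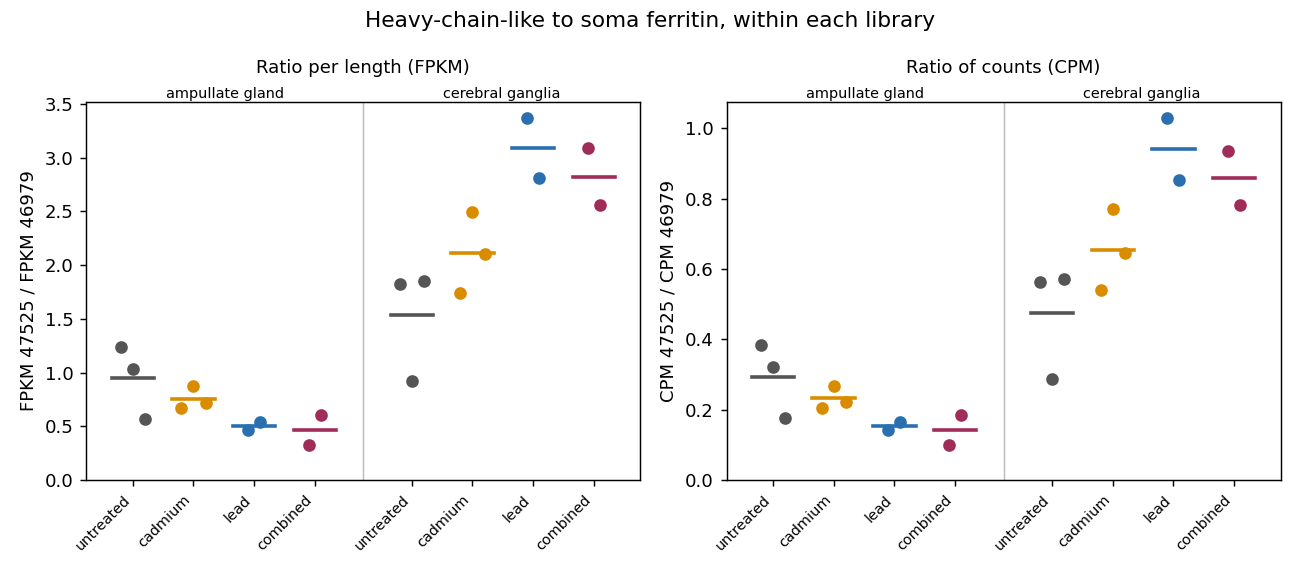
Ratio of the heavy-chain-like to the long soma ferritin within each library, per length (FPKM, left) and as counts (CPM, right), on linear axes from 0; points are libraries and bars are group means. The 4 ganglia libraries with lead lie at 2.56 to 3.37 per length and the 6 without at 0.928 to 2.50, and the gland libraries lie at 0.331 to 1.24.

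The less abundant ferritins had scattered levels. The heavy chain A-like cluster was at 18.4, 33.7 and 9.49 CPM in the untreated ganglia, 20.8, 7.70 and 13.6 with cadmium, 8.10 and 4.23 with lead, and 8.71 and 12.2 with both metals. Both lead libraries lay below all 3 untreated ones, as 21.3% of all clusters did. Its log2 change with lead was -1.74 ± 0.58 with an edgeR adjusted p of 0.105, and DESeq2 gave 0.0394. In the gland it was 24.4, 8.18 and 3.74 CPM untreated, 7.30, 9.63 and 9.41 with cadmium, 2.87 and 2.55 with lead, and 15.7 and 1.09 with both. The log2 change with lead there was -2.16 ± 1.08 (adjusted p 0.435). Between the tissues it differed by -0.74 untreated, -0.71 with cadmium, -1.28 with lead and -0.41 with both metals, with adjusted p of 0.531 to 0.869; the last was -3.66 (0.0467) without combined gland library 1 and 0.50 without combined gland library 2.

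The second cluster matching A. ventricosus ferritin was at 3.26, 11.1 and 6.38 CPM in the untreated ganglia, 4.83, 4.89 and 4.76 with cadmium, 4.02 and 0.907 with lead, and 3.34 and 1.73 with both metals. Its log2 change was -1.49 ± 0.66 with lead and -1.45 ± 0.66 with both, with edgeR adjusted p of 0.193 and 0.229. In the gland it was at 5.79, 0.234 and 0.302 CPM untreated, 2.12, 1.03 and 5.50 with cadmium, 1.34 and 0.182 with lead, and 0.611 and 0 with both. Each exposed group overlapped the untreated one, and combined against cadmium was not called (log2 change -3.29 ± 1.95, edgeR adjusted p 0.508). The short soma ferritin was at 6.30, 37.5 and 4.95 CPM in the untreated gland, 8.53, 16.2 and 11.1 with cadmium, 14.9 and 17.7 with lead, and 92.4 and 8.50 with both. In the ganglia it was at 41.8, 12.03 and 25.1 CPM untreated, 85.2, 26.1 and 11.4 with cadmium, 39.2 and 57.9 with lead, and 12.2 and 36.2 with both. No exposure separated it from untreated without an overlap in either tissue.

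Across the ganglia, 1 of 13 members was called for lead against untreated, where 4.92% of all clusters were, 2.67% in its direction, which was higher. At an unadjusted p under 0.05 there were 3 members, against 24.9% of all clusters, and DESeq2 called 2, where it called 13.8% of all clusters. The call by edgeR is Cluster-16698.1316, which passed the filter on low counts only through the lead libraries, so the count says nothing about the other members. For cadmium 0 members were called by edgeR, with 0 at an unadjusted p under 0.05 and 0 by DESeq2, where 0% of all clusters were called by edgeR, 0.323% by DESeq2 and 7.62% had an unadjusted p under 0.05. For both metals edgeR called 0, with 2 at an unadjusted p under 0.05 and 1 by DESeq2, against 1.06% of all clusters called, 22.1% unadjusted and 10% by DESeq2. Combined against lead gave 0 (2 unadjusted, 0 by DESeq2), against 0% of all clusters, 5.8% and 0.435%. Combined against cadmium gave 0 (3 unadjusted, 1 by DESeq2), against 0.908%, 17.8% and 6.96%, and the test against the added single-metal changes gave 0 (1 unadjusted, 0 by DESeq2), against 0%, 10.1% and 1.01%. The median log2 change with lead over the members was -0.49, beside -0.05 over all clusters.

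The member called for lead has a name that points outside spiders. Cluster-16698.1316 (1170 bases) had a soma ferritin of the sea anemone Exaiptasia as its protein hit (score 706) and a sea urchin soma ferritin as its nucleotide hit. Its reads were 53 and 63 counts in lead ganglia libraries 1 and 2, or 2.48 and 2.72 CPM, and 0 in the other 18 libraries. Against the level that 3 counts in an untreated library would give, 0.232 CPM, the lead ganglia were at least 10.7-fold higher. Having reads in these libraries alone, it entered the test only through the group where it is high, and its fitted change depends on the prior count, so the edgeR adjusted p of 0.0329 is given as a description. Without ganglia untreated library 1 or 3 it was 0.0503 and 0.0616, and without lead library 1 or 2 it was 0.163 and 0.267. Of 15096 clusters with at least 50 counts in both lead ganglia libraries, 2 were at 0 in all 18 others, this one included.

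Pooling the ganglia libraries with lead called a different member, Cluster-16698.42205 (1079 bases), like a soma ferritin of the house spider Parasteatoda (score 146). It was at 1.83, 1.36 and 3.19 CPM untreated, 2.91, 2.53 and 2.25 with cadmium, 1.26 and 1.60 with lead, and 0.618 and 0.374 with both metals. The log2 difference was -1.46 ± 0.37 with an edgeR adjusted p of 0.0307, where 12.2% of all clusters were called and 5.69% were lower, so 1 of 13 members is no more than the background. The ranges overlapped, since untreated library 2 lay below lead library 2. The call was lost with no filter on low counts (-1.37, adjusted p 0.0602), and without ganglia cadmium library 1 (0.0538) or 2 (0.0526), untreated library 3 (0.0526), combined library 1 (0.0689) or 2 (0.124), and lead library 1 (0.144) or 2 (0.109).

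The remaining ferritin-named clusters were scarce, and several were present in few libraries. One soma ferritin (Cluster-16698.30848) stood at 15.8 CPM in cadmium gland library 3 and 11.5 in untreated gland library 1 and under 0.8 CPM in the other 18. A spleen-middle-subunit ferritin (Cluster-16698.28204) had reads in 10 libraries, up to 3.78 CPM in an untreated ganglia library. Clusters named for the human heavy and light chain (Cluster-25263.0 and Cluster-16698.89632) had 62 and 58 counts over all libraries. The top level of these clusters was 1.48 CPM in combined ganglia library 1 and 1.58 CPM in untreated gland library 2. Their nucleotide hits were a human and a synthetic human sequence, with scores of 747 and 851 for clusters of 747 and 851 bases. Both are among the 16 members tested between the tissues. The other 2 tested clusters, like ferritins of a mussel and of the house spider, averaged 0.524 and 0.47 CPM.

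The change on exposure was not shown to differ between tissues for any member: 0 of 16 passed the exposure by tissue test with edgeR, 0 had an unadjusted p under 0.05 and DESeq2 called 0, against 0% of all clusters by edgeR, 6.14% unadjusted and 1.1% by DESeq2. The smallest adjusted p among members was 0.822.

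The proteins that regulate and supply these binders were read from a list of 44 clusters, of which 29 were tested in the gland and 27 in the ganglia. In the gland 0 of 29 were called for cadmium, lead or both, where edgeR called 0%, 0% and 0.225% of all clusters. Cytoplasmic aconitase (Cluster-16698.47501), which doubles as iron regulatory protein 1, had a higher mean in each exposed gland group. Its level was 145 ± 68.8 CPM (SD, n = 3) untreated, 265 ± 74.9 (n = 3) with cadmium, 376 ± 5.46 (n = 2) with lead and 442 ± 64.0 (n = 2) with both metals. The log2 change was 0.86 ± 0.43, 1.37 ± 0.47 and 1.60 ± 0.47, with edgeR adjusted p of 1.0, 0.348 and 0.188. Over the 5 iron-sensing clusters tested in the gland the median log2 change was 0.52, 1.09 and 1.87. Over all clusters it was 0.07, -0.15 and -0.04. For both metals the smallest edgeR adjusted p among the 5 was 0.0912, in another cluster. In the ganglia cytoplasmic aconitase was at 155 ± 1.09 CPM untreated and 205 ± 18.5 with lead. The median log2 change with lead over the 2 iron-sensing clusters tested there was -0.36, beside -0.05 over all clusters.

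The divalent metal transporter of the Malvolio type (Cluster-16698.51887), which carries iron and manganese across membranes in flies, was high in the gland groups with cadmium. It was at 4.07 ± 4.07 CPM untreated, 21.6 ± 14.3 with cadmium, 5.95 ± 6.43 with lead and 19.4 ± 3.86 with both metals. Its log2 change was 2.40 ± 0.91 for cadmium and 2.25 ± 0.96 for both metals, with adjusted p of 1.0 and 0.324. A melanotransferrin-like cluster (Cluster-16698.55967), of the family that binds iron at the cell surface, was high in the gland groups with lead, at 53.5 ± 16.1 and 49.7 ± 11.8 CPM against 12.3 ± 13.1 untreated. Its adjusted p was 0.374 for lead and 0.301 for both. These 2 clusters were named after their values were seen, and neither was called. Over the 11 tested clusters for iron carriers and transporters, the median log2 change was 0.42 for cadmium, 0.16 for lead and 0.16 for both. Over all clusters it was 0.07, -0.15 and -0.04. The share of all clusters with a like pattern was not counted.

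The enzyme that starts the synthesis of glutathione, a thiol that binds cadmium, is glutamate-cysteine ligase. Its regulatory subunit (Cluster-16698.29022) was at 6.69 ± 1.75 CPM in the untreated gland, 7.53 ± 2.41 with cadmium, 12.5 ± 0.30 with lead and 12.5 ± 0.19 with both metals, and the adjusted p for lead was 0.449. Its catalytic subunit (Cluster-16698.49733) was at 8.08 ± 2.91 CPM in the untreated gland and 14.8 ± 6.82 with cadmium. The 4 tested clusters for thiols that bind metal did not rise together with lead. Their median log2 change in the gland was 0.26 for cadmium, -0.61 for lead and -0.35 for both metals. Over all clusters it was 0.07, -0.15 and -0.04. Mitoferrin (Cluster-16698.47513), which brings iron into mitochondria, was at 63.8 ± 21.1 CPM in the untreated gland and 125 ± 12.4 in the untreated ganglia (log2 difference -0.94 ± 0.35, adjusted p 0.1).

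In the ganglia 1 of 27 clusters of this list was called for lead, beside 4.92% of all clusters, and 3 (1 higher and 2 lower) with the libraries with lead pooled, beside 12.2%. The one called for lead was a cluster like ferric-chelate reductase (Cluster-16698.18799), an enzyme that reduces ferric iron, which fell from 2.71 ± 0.36 to 0.35 ± 0.31 CPM (log2 change -2.96 ± 0.72, adjusted p 0.0454). Transferrin (Cluster-16698.44413), the iron carrier of body fluids, averaged 128 ± 70.1 CPM in the untreated ganglia, 44.8 ± 10.8 with cadmium, 38.8 ± 5.23 with lead and 56.9 ± 20.1 with both metals. Its log2 change was -1.52 ± 0.39 for cadmium and -1.73 ± 0.45 for lead, with edgeR adjusted p of 0.62 and 0.0533. For the 3 exposures averaged, a contrast added after the data were seen in which 3.09% of all clusters were called, it was -1.47 ± 0.31 with an adjusted p of 0.0379. All 7 exposed ganglia libraries lay at 35.1 to 71.2 CPM and the untreated ones at 81.4 to 209, as 2.51% of all clusters did.

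Between the untreated tissues 7 of 32 list members were called, 1 higher and 6 lower in the gland, beside 10.3% of all clusters, 3.91% higher and 6.35% lower. The higher one was the cluster like metal regulatory transcription factor 1 (Cluster-16698.68395), at 5.43 ± 3.97 CPM in the gland against 1.07 ± 0.50 in the ganglia (log2 difference 2.35 ± 0.69, adjusted p 0.0388). Its better protein hit is a zinc finger protein, so the name is uncertain. A poly(rC)-binding protein (Cluster-16698.27838), of the family that hands iron to ferritin in mammals, was at 11.6 ± 5.97 CPM in the gland against 247 ± 80.1 in the ganglia (-4.36 ± 0.59, adjusted p 0.0004). The others lower in the gland were a second poly(rC)-binding cluster, 2 transferrins and 2 ferric-chelate reductases.

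Clusters whose levels ran most like those of the metallothionein-like cluster over the 10 libraries of a tissue are given as a description. Depth, group and fragment length differed among these libraries, and the clusters were picked as the most alike. Among 6209 named clusters of at least 10 CPM in the gland they were like Nudt3, a phosphohydrolase of inositol pyrophosphates (Pearson's r 0.966), the lipase ABHD12 (0.962) and YIPF1 (0.953). In the ganglia they were like the transcription factor C/EBP beta (0.916), histidine ammonia-lyase (0.887) and CEPT1, an enzyme of phospholipid synthesis (0.877). With the long soma ferritin the metallothionein-like cluster had an r of 0.593 in the gland and -0.41 in the ganglia. The long soma ferritin itself ran most like an alkaline phosphatase in the gland (0.975) and the branched-chain keto acid dehydrogenase Bckdha in the ganglia (0.975).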

How the data were processed

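Per the labels' protocols, RNeasy columns gave the RNA and a SMARTER mRNA-Seq kit the libraries. The authors deposited estimated counts per assembled cluster, and a second deposited table whose FPKM unit was read from its values. The hit scores are the authors' deposited annotation scores. Which assembler, aligner and counter were used is not given in the sources. Members and lists were chosen with earlier results of these data known. The copied columns were left out, which leaves 20 libraries. Counts were rounded to whole numbers and tested in R 4.3.3 by the quasi-likelihood test of edgeR 4.0.16 (TMM scaling, filterByExpr, robust glmQLFit), with Benjamini-Hochberg adjustment over all clusters tested: 44505 in the gland, 38659 in the ganglia and 51904 in both, one mean per group, calls at an adjusted p under 0.05. Groups of 2 are assumed to vary like the others. Standard errors are the log2 change over the root of the F statistic. Ranges count as apart where no library overlaps. Named members were those called in any planned comparison, up to 4 metallothionein and 6 ferritin members with the highest mean CPM; list members were the called ones and up to 2 a role by mean CPM. Cluster-16698.42205, the Malvolio-type and the melanotransferrin-like clusters were named after their values were seen. Alternatives were DESeq2 1.42.0, RLE and TMMwsp scaling, other filters, a replicate block, a length trend, no robust estimation, the compared groups only, dropping silk or mitochondrial clusters, and leaving out each library. The scripts were tested on simulated data with a smaller spread than these data, which does not show how many real changes would be called here. The labels do not tie libraries to animals; p-values then cover only differences among libraries, which may be technical. Sequences are not used here.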

Additional observations from a re-analysis of the deposited data

Results flagged for a closer look

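The long soma ferritin was the only member flagged: its log2 change with lead was 0.62 in the gland and -0.49 in the ganglia, with both lead libraries above all untreated ones in the gland and below all of them in the ganglia. Neither change passed the test, and the exposure by tissue test, over all 3 exposures, gave an edgeR adjusted p of 0.962. The difference for lead alone was not tested.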

How the results depend on the processing

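Groups of 2 or 3 libraries limit what can be called, and the biological coefficient of variation was 0.902 in the gland and 0.496 in the ganglia. Of the member changes under alternatives 979 kept their direction and side of the threshold, 38 fell below it and 24 rose past it. Reversed were 3 tissue differences, none of which was called: the long soma ferritin in lead, at 0.056 once the length trend was removed, and without combined gland library 2 the long soma ferritin (0.35) and the heavy chain A-like cluster (0.50) in combined exposure, which without combined gland library 1 were -1.84 and -3.66. The counts of members called moved as follows, with the cause not tested. With DESeq2 and with no filter on low counts, respectively, lead against untreated in the ganglia gave 2 and 2, combined against untreated 1 and 1, combined against cadmium 1 and 3, the libraries with lead pooled 3 and 5, untreated gland against ganglia 5 and 5, the same within cadmium 2 and 2, and within combined exposure 4 and 4. In the same order the shares of all clusters called were 13.8% and 4.11%, 10% and 3.42%, 6.96% and 2.65%, 20.5% and 6.22%, 18.2% and 5.72%, 18.9% and 5.99%, and 13.3% and 3.73%. The 5 members with no filter for lead pooled leave out the 1 called with it, Cluster-16698.42205. With no filter alone, combined against lead in the ganglia gave 1, the departure from the sum 1, the mean of the 3 exposures 2 (ganglia) and 1 (gland), and gland against ganglia in lead 2, where 0.565%, 1%, 3.91%, 1.98% and 3.4% of all clusters were called. Lead against untreated in the ganglia gave 0 with a filter of 1 CPM, 0 with only the compared groups and 0 with the replicate block; the block also gave 0 for the libraries with lead pooled (Cluster-16698.42205 at an adjusted p of 0.0893) and 1 for gland against ganglia in combined exposure. Removing the length trend gave 2 for the libraries with lead pooled in the ganglia and 1 for combined gland against ganglia, which also gave 1 with no robust estimation. Leaving out 1 library gave 0 to 1 for lead against untreated, combined against cadmium and the libraries with lead pooled in the ganglia, 0 to 1 for lead pooled in the gland, 2 to 4 for untreated gland against ganglia, 1 to 2 in cadmium, 0 to 2 in lead and 1 to 4 in combined exposure. Shares of all clusters are given above for DESeq2 and no filter only. Counts under the other settings are therefore no result about the members alone. Whether the replicate numbers pair libraries was not settled. In the gland, deviations from the group mean correlated at -0.21 to 0.354 for same-numbered libraries and -0.465 to 0.306 for the others. In the ganglia they correlated at -0.29 to 0.204 and -0.293 to 0.293. The deviations mirror each other in groups of 2, so these values cannot decide it. Scaling by RLE instead of TMM moved the median of all clusters for lead in the gland from -0.15 to -0.27 and for cadmium from 0.07 to -0.03.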
